A study of Mus musculus with 4 samples.

Results

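The FGF, PDGF, VEGF, HGF and EGF families are secreted growth factors and the receptor tyrosine kinases that read them. Members were taken from the 4 arrays of a mouse expression study by gene symbol: all Fgf and Fgfr genes with a number, all Pdgf and Vegf genes, and 17 further symbols, of which 9 (Pgf, Flt1, Kdr, Flt4, Egf, Ereg, Tgfa, Nrg1 and Erbb2) matched no named probe set. This gave 44 of 908 named genes: 26 of the FGF family, 6 of the PDGF family, 4 of the VEGF family, 6 of the EGF family, and Hgf with its receptor gene Met. For each gene the probe set with the highest mean over the 4 arrays was used.

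The cells were wild-type vascular smooth muscle cells (VSMC), kept in osteogenic medium in both groups. The streptozotocin group (2 arrays) received 0.4 mM streptozotocin (STZ), a glucosamine nitrosourea, and the control group (2 arrays) did not. Each group held 1 array of a cell sample named WTA and 1 of a cell sample named WT2, called cultures here. The labels give no age, strain or passage, and do not say whether WTA and WT2 come from separate animals, so a p-value measures only the spread between these arrays, which may be technical. The titles also carry a "3w", which is left unread here. In such bulk RNA, fewer cells of a type and less RNA per cell cannot be told apart.

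Each value is the authors' log2 value from RMA, a method that corrects background, makes array distributions alike and summarises the probes of a set. The 4 array medians ran from 5.83 to 5.87, the lower quartiles from 4.39 to 4.4 and the upper quartiles from 8.58 to 8.69, and with 4 arrays the precision is low. Arrays correlated with each other at 0.977 to 0.997. Of 7 smooth muscle markers (such as Acta2 and Myh11) and 7 osteogenic markers (such as Runx2 and Alpl), 0 had a named probe set, so the labelled cell type could not be checked by its own markers. Of 12 endothelial markers 6 were measured and 4 of these (Thbd, Cd34, Esm1 and Selp) had a mean above the array median, while Pecam1 lay between 3.79 and 4.0 and Sele between 3.14 and 3.41, below the lower quartile on every array. Of 14 leukocyte marker symbols, among which Emr1 and Adgre1 name the same gene, 5 were measured, 1 of them (Csf1r) above the array median. Of 4 fibroblast markers 3 were measured (Dcn, Lum and Pdgfra), all above the median.

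Fibroblast growth factors (FGFs) bind their receptors together with heparan sulfate chains, or with a Klotho protein in the case of the hormone-like members, and drive proliferation, migration and skeletal growth. Platelet-derived growth factors (PDGFs) are the classical mitogens of smooth muscle: PDGF-A and PDGF-C act on PDGFRα, PDGF-D chiefly on PDGFRβ, and PDGF-B on both. Vascular endothelial growth factors (VEGFs) guide blood and lymph vessel growth, HGF is a mesenchymal factor that acts through the receptor MET, and the EGF-type ligands act through EGFR and the other ERBB receptors. Muscle cells of the artery wall both make and receive several of these signals.

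Of the 44 members, 20 had a mean above the array median of 5.86. They were 5 of 22 Fgf genes, 3 of 4 Fgfr genes, 5 of 6 PDGF genes, all 4 VEGF ligands, Hgf, Met and, of the EGF family, Egfr. The other 24 are called dim here, since background can make up much of such a value, and 8 of them had a mean below the lower quartile. Probe sets bind their targets with unequal strength, so levels of different genes are not set against each other.

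**Figure D1:**
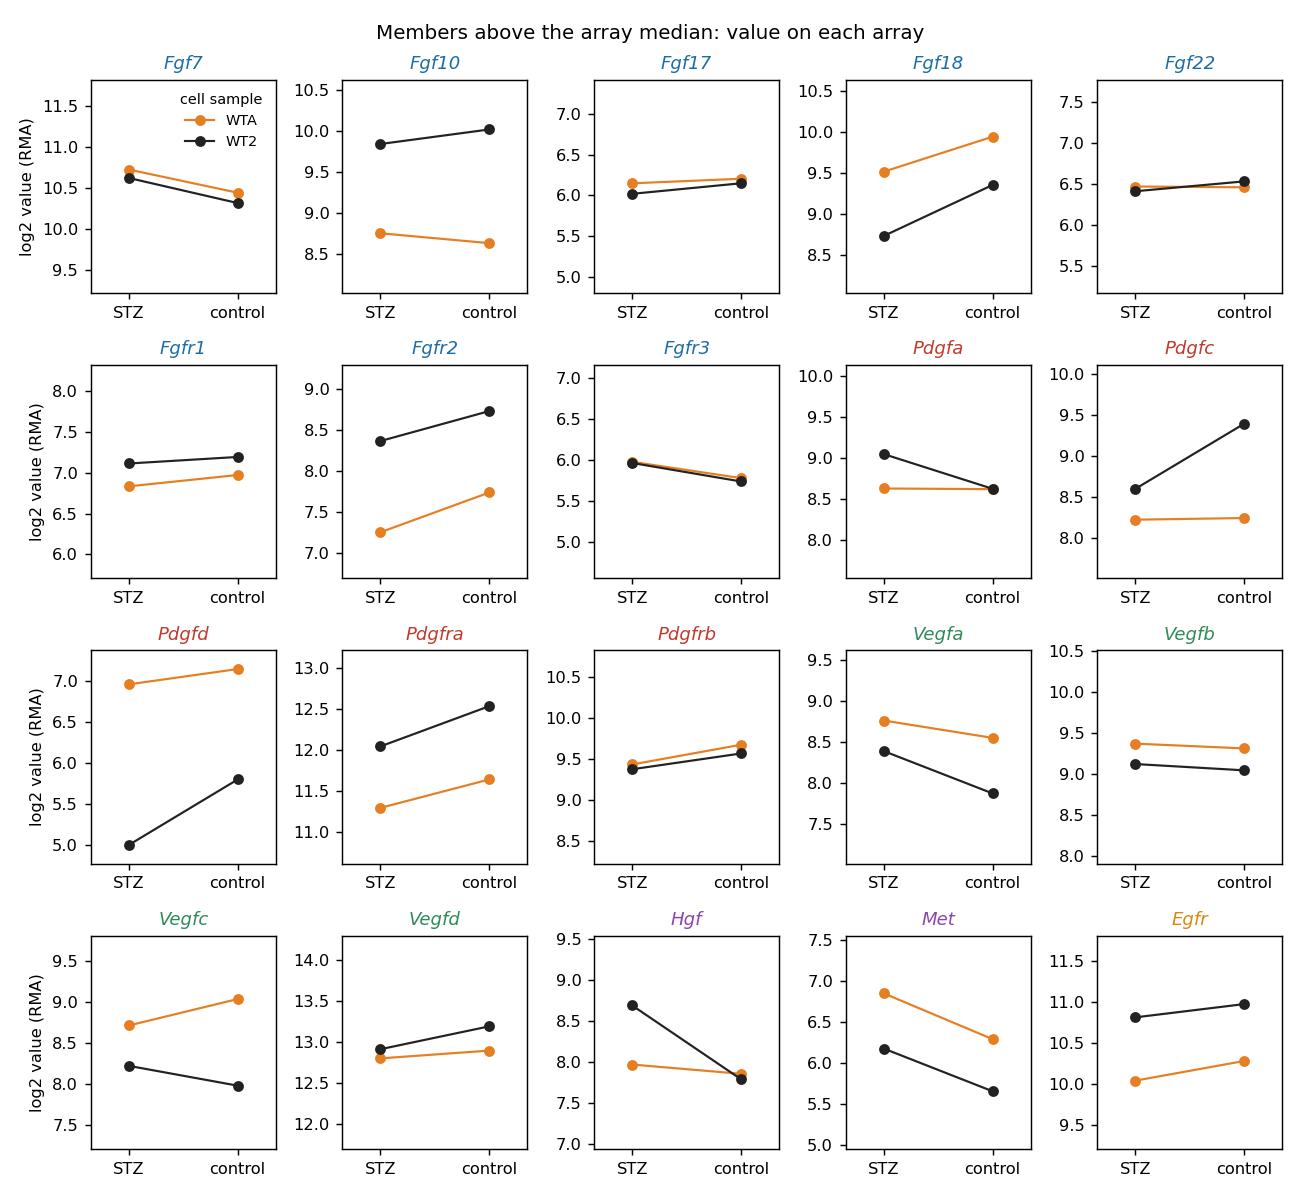
Log2 value (RMA) of the 20 members above the array median on each array, STZ at the left and control at the right of each panel, with a line joining the arrays of a culture (WTA orange, WT2 black). The lines of Fgf10, Fgfr2, Pdgfd and Pdgfra are far apart between the cultures. Those of Met run nearly parallel.

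The first comparison, STZ against control, asked whether growth factor genes respond to STZ in cells under osteogenic conditions. Of the 44 members 0 passed the test: at an adjusted p under 0.05 limma called none of the 1246 probe sets (0%), without the replicate block and with it. The median difference over the members was -0.03 on the log2 scale, beside -0.01 over all probe sets, and single members ran from -0.52 (Fgf18) to 0.54 (Met). At an unadjusted p under 0.05 the fit without the block held 1 member (Fgf7) and 2.01% of all probe sets. The fit with the replicate block, which compares the arrays within a culture, held 6 members at an unadjusted p under 0.05, beside 6.42% of all probe sets and 10.1% of those above the array median. Of these 6, Met, Fgf7 and Vegfa were higher and Fgf18, Fgfr2 and Pdgfra lower with STZ. The smallest adjusted p among the members in that fit was 0.585.

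Within the cultures, where each arm holds 1 array and no test was possible, 15 members (34.1%) were higher with STZ in both cultures, beside 22.6% of all probe sets, and 17 members (38.6%) were lower in both, beside 28.5%. With a difference of at least 0.2 in both cultures, the members were Met, Fgf7 and Vegfa on the higher side (6.82%, beside 3.29% of all probe sets) and Fgf18, Fgfr2 and Pdgfra on the lower side (6.82%, beside 4.17%). Both STZ arrays lay above both control arrays for 5 members (11.4%, beside 10.8% of all probe sets), Fgf7, Fgfr3, Hgf, Pdgfa and the dim Erbb4. They lay below both for 6 members (13.6%, beside 13.8%), Pdgfrb, Fgf17 and the dim Pdgfb, Fgf3, Fgf12 and Fgf16. The shares of members whose groups did not overlap were near those of the whole array. In WT2, 1 member (Hgf) was at least 1.5-fold higher with STZ (4.82% of all probe sets) and 4 members (Pdgfd, Pdgfc, Fgf18 and the dim Fgf14) at least 1.5-fold lower (2.49%). In WTA 0 members were 1.5-fold higher (0.642%) or lower (1.69%).

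**Figure D2:**
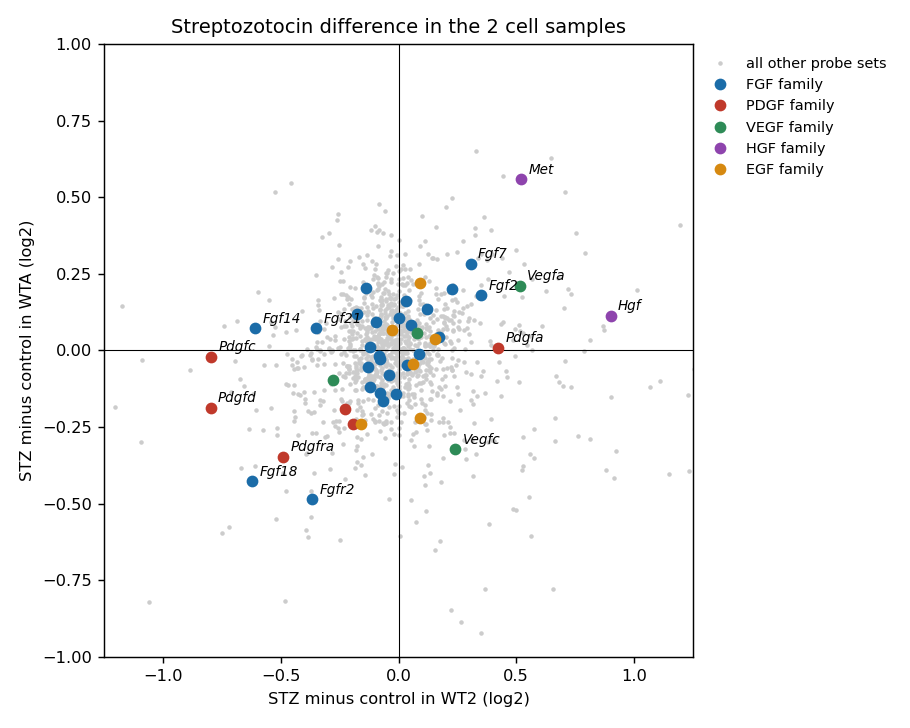
STZ minus control on the log2 scale in WT2 (horizontal) and in WTA (vertical) for every member, coloured by family, and for all other probe sets (grey), with 31 probe sets and 0 members outside the plotted range. Met lies at 0.52 and 0.56, Hgf at 0.90 and 0.11, and Pdgfd at -0.80 and -0.19.

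Among the FGF ligands, the keratinocyte growth factor gene Fgf7, whose product is made by mesenchymal cells and acts on epithelia through a splice form of FGFR2, had a difference of nearly the same size in each culture. Fgf7 stood at 10.72 in WTA and 10.62 in WT2 with STZ, against 10.44 in WTA and 10.31 in WT2 in control cells. The groups did not overlap, and the difference was 0.29 (95% interval without the block 0.01 to 0.58, limma adjusted p = 1), or 1.23-fold. Its close relative Fgf10, a mesenchymal signal for lung and limb buds, went opposite ways: 8.75 in WTA and 9.84 in WT2 with STZ, against 8.63 in WTA and 10.02 in WT2 in control cells. The mean difference of Fgf10 was -0.03, with an interval of -1.91 to 1.85 without the block and of -0.37 to 0.32 with it.

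Fgf18, a regulator of cartilage and bone growth that signals to FGFR3 among others, had the most negative difference of all members. It stood at 9.52 in WTA and 8.74 in WT2 with STZ, against 9.95 in WTA and 9.36 in WT2 in control cells. Each culture was lower with STZ, by -0.43 in WTA and -0.62 in WT2, but the groups overlapped because WTA lay above WT2 in both arms. The mean difference of -0.52 had an interval of -1.59 to 0.54 without the block. With the block the interval was -0.83 to -0.22 and the limma adjusted p 0.608. The other bright ligands, Fgf17 and Fgf22, differed by -0.09 and -0.06.

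The remaining 17 Fgf genes were dim. The hormone-like group held Fgf15, Fgf21, a liver signal of fasting, and Fgf23, the bone hormone of phosphate excretion, and their values ran from 3.51 to 5.16. Fgf23 stood at 4.19 in WTA and 3.63 in WT2 with STZ, against 4.06 in WTA and 3.51 in WT2 in control cells. All of these values lay below the lower quartile of the arrays. The intracellular group (Fgf11 to Fgf14), which binds sodium channels rather than receptors, had differences from -0.27 (Fgf14) to 0.03 (Fgf13). For Fgf14 the control array of WT2, at 4.99, stood apart from the other 3 arrays at 4.16 to 4.39. Its second probe set ran lower, from 2.94 to 3.35, with the same mean difference of -0.27 but another pattern. It differed by -0.24 in WT2 and -0.31 in WTA, against -0.61 in WT2 and 0.07 in WTA for the chosen set. Fgf2, the basic FGF that is a known mitogen of smooth muscle, stood at 5.57 in WTA and 5.36 in WT2 with STZ, against 5.39 in WTA and 5.01 in WT2 in control cells. Its difference of 0.26 was the largest positive one among dim members (interval -0.25 to 0.78 without the block and -0.03 to 0.56 with it). For Fgf9, whose probe sets are both dim, the differences were 0.11 and -0.05.

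**Figure D3:**
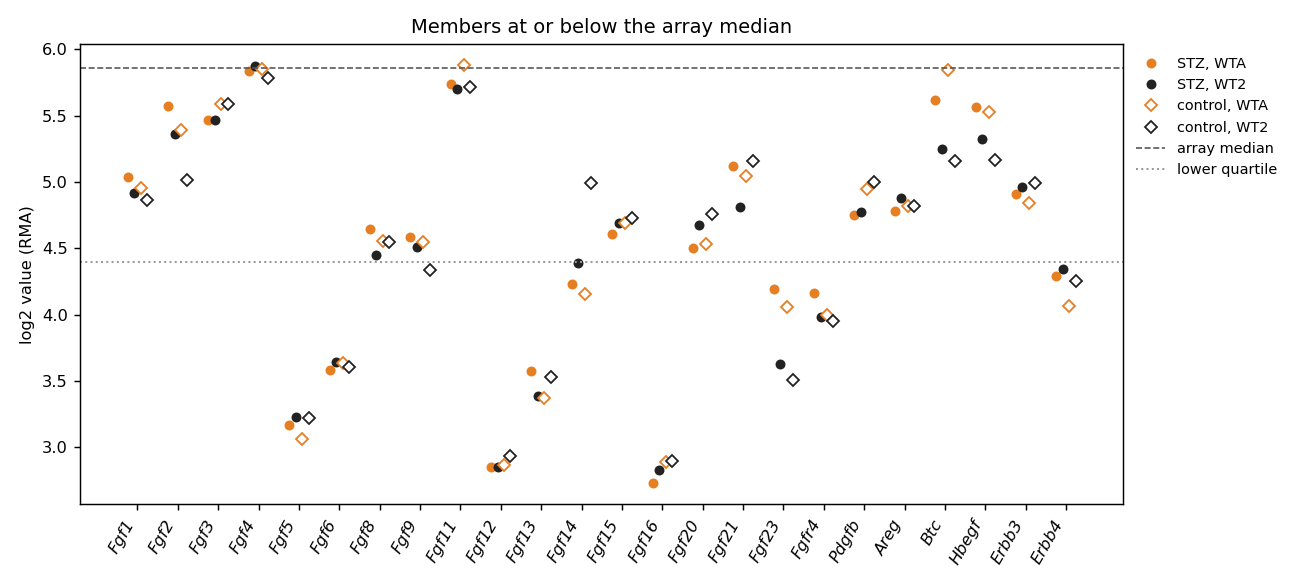
Log2 value (RMA) of the 24 members at or below the array median on each array, STZ as filled circles and control as open diamonds (WTA orange, WT2 black). The dashed line is the array median (5.86) and the dotted line the lower quartile (4.4). For most of these genes the 4 values lie close together, and the control array of WT2 stands out for Fgf14.

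Of the FGF receptors, Fgfr2 was at 7.25 in WTA and 8.36 in WT2 with STZ, against 7.74 in WTA and 8.73 in WT2 in control cells. Both cultures were lower with STZ, by -0.49 and -0.37, and again the distance between the cultures made the groups overlap. The mean difference was -0.43, with an interval of -2.02 to 1.17 without the block and of -0.71 to -0.15 with it (limma adjusted p = 0.625 with the block). Fgfr3, a brake on cartilage growth, lay at the array median itself: 5.98 in WTA and 5.97 in WT2 with STZ, against 5.78 in WTA and 5.74 in WT2 in control cells. Its groups did not overlap, and its difference was 0.21 (interval without the block -0.02 to 0.45). Fgfr1 differed by -0.11 and the dim Fgfr4 by 0.10. Il17rd, a membrane antagonist of FGF signalling, was the only gene with a named probe set among 13 listed FGF co-receptors and regulators. It stood at 6.39 in WTA and 6.93 in WT2 with STZ, against 6.98 in WTA and 7.68 in WT2 in control cells, a difference of -0.67 that did not pass the test.

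In the PDGF family 5 of 6 genes were lower with STZ in both cultures, where 28.5% of all probe sets were, and none passed; for Pdgfc the WTA difference was only -0.02. The exception was the ligand gene Pdgfa, at 8.63 in WTA and 9.04 in WT2 with STZ, against 8.62 in WTA and 8.62 in WT2 in control cells. The STZ array of WT2 stood apart from the other 3, and the difference was 0.22. Pdgfc was at 8.22 in WTA and 8.59 in WT2 with STZ, against 8.24 in WTA and 9.39 in WT2 in control cells. Here the control array of WT2 was the high one, and the difference was -0.02 in WTA and -0.80 in WT2. Pdgfd was at 6.96 in WTA and 5.0 in WT2 with STZ, against 7.14 in WTA and 5.80 in WT2 in control cells, and its difference was -0.19 in WTA and -0.80 in WT2. Pdgfb, the classical mitogen of smooth muscle, was dim, at 4.75 in WTA and 4.77 in WT2 with STZ, against 4.94 in WTA and 5.0 in WT2 in control cells.

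Both PDGF receptors were bright and lower with STZ. Pdgfra, also a marker of fibroblasts, stood at 11.30 in WTA and 12.05 in WT2 with STZ, against 11.64 in WTA and 12.54 in WT2 in control cells. The difference of -0.42 was -0.35 in WTA and -0.49 in WT2. Its interval was -1.68 to 0.84 without the block and -0.71 to -0.13 with it (limma adjusted p = 0.625 with the block). Pdgfrb, the receptor that marks mural cells of vessels, stood at 9.44 in WTA and 9.38 in WT2 with STZ, against 9.68 in WTA and 9.57 in WT2 in control cells. Its groups did not overlap, and the difference was -0.22 (interval without the block -0.48 to 0.05). The other 2 measured fibroblast markers, Lum (-0.83) and Dcn (-0.34), had lower values with STZ in both cultures too. The summed linear level of Lum and Dcn, without Pdgfra, was 4688 in WTA and 6146 in WT2 with STZ, against 6105 in WTA and 8273 in WT2 in control cells. With Pdgfra in the sum it was 7202 in WTA and 10378 in WT2 with STZ, against 9306 in WTA and 14217 in WT2 in control cells. Their part in the PDGF receptor values was not tested.

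All 4 VEGF ligand genes were bright. Vegfa, the main signal for blood vessel growth, stood at 8.76 in WTA and 8.39 in WT2 with STZ, against 8.55 in WTA and 7.87 in WT2 in control cells. It was higher in each culture, by 0.21 and 0.52, with a mean of 0.36. The interval was -0.49 to 1.22 without the block and 0.02 to 0.71 with it (limma adjusted p = 0.732 with the block). Vegfc, a lymphatic growth factor, stood at 8.71 in WTA and 8.22 in WT2 with STZ, against 9.03 in WTA and 7.98 in WT2 in control cells, so that the cultures went opposite ways. Vegfd, the other lymphatic factor, stood at 12.80 in WTA and 12.91 in WT2 with STZ, against 12.89 in WTA and 13.19 in WT2 in control cells. Its difference was -0.19, with each culture lower. Vegfb, a ligand of FLT1, differed by 0.07. The receptors Flt1, Kdr and Flt4 were not analysed here. Of 7 co-receptors and partners 3 were measured, all angiopoietins, and 0 passed: Angpt4 differed by 1.03, Angpt1 by 0.42 and Angpt2 by -0.69. For Angpt1 the cultures went opposite ways, with -0.50 in WTA and 1.34 in WT2.

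Hgf and Met, a ligand and its receptor, had the largest positive differences. Hgf stood at 7.97 in WTA and 8.69 in WT2 with STZ, against 7.86 in WTA and 7.79 in WT2 in control cells. The STZ array of WT2 was the high one, and the difference of 0.51 was 0.11 in WTA and 0.90 in WT2 (interval without the block -0.29 to 1.31). Met stood at 6.85 in WTA and 6.17 in WT2 with STZ, against 6.29 in WTA and 5.65 in WT2 in control cells. The control value of WT2 lay below the array median of 5.86, and the identifier of the probe set ends in s. Met differed by nearly the same amount in each culture, 0.56 in WTA and 0.52 in WT2. The mean of 0.54, or 1.45-fold, had an interval of -0.47 to 1.55 without the block and of 0.27 to 0.81 with it, where the adjusted p was 0.585. The groups of Met overlapped, since the control array of WTA lay above the STZ array of WT2.

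In the EGF family, Egfr encodes the shared receptor of HB-EGF, amphiregulin and betacellulin. It stood at 10.04 in WTA and 10.82 in WT2 with STZ, against 10.28 in WTA and 10.98 in WT2 in control cells. The difference of Egfr was -0.20 (interval -1.32 to 0.92 without the block and -0.47 to 0.07 with it). Its second probe set differed by -0.19. The ligand gene Hbegf, whose product needs heparan sulfate for full activity, was dim, at 5.57 in WTA and 5.32 in WT2 with STZ, against 5.53 in WTA and 5.17 in WT2 in control cells. The other dim members, Areg, Btc, Erbb3 and Erbb4, differed by 0.01, -0.06, 0.02 and 0.15. Of 19 listed ERBB, MET and shared effector genes only Cd44, a co-receptor of MET and ERBB signalling, had a named probe set. Cd44 differed by 0.57 without passing the test.

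**Figure D4:**
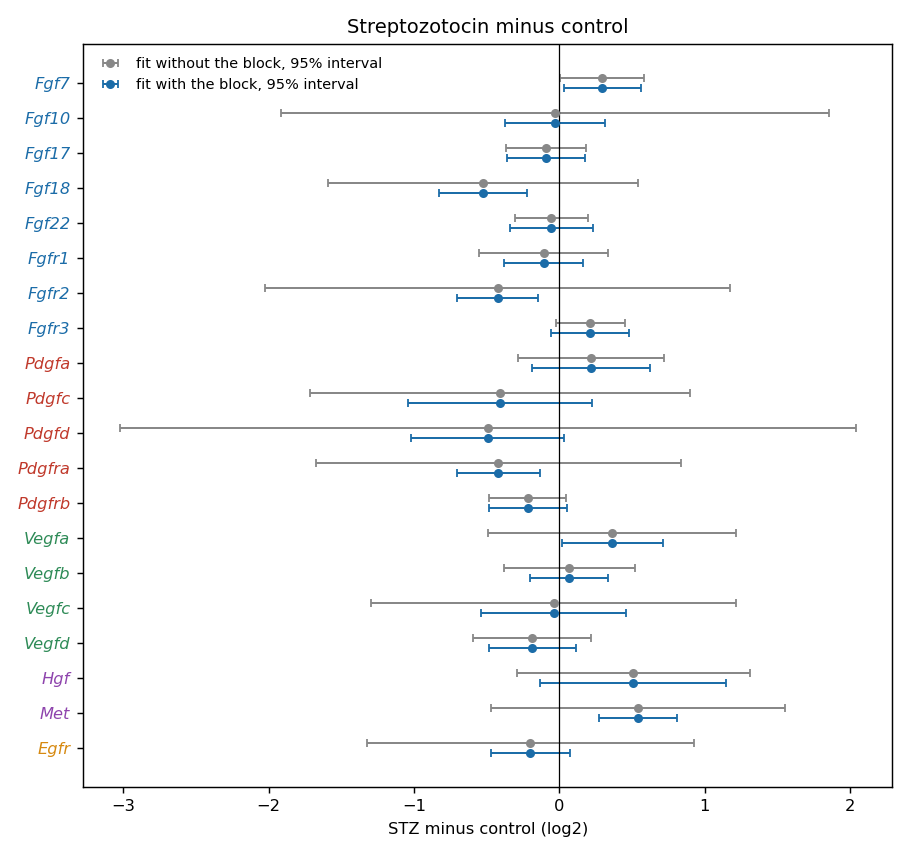
STZ minus control (log2) for the 20 members above the array median, with 95% intervals from the fit without the block (grey) and with it (blue). The interval of Met runs from -0.47 to 1.55 without the block and from 0.27 to 0.81 with it, and 0 members pass after adjustment in either fit.

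Heparan sulfate chains hold most of these ligands at the cell surface, and 33 of 34 listed genes of their synthesis, editing and core proteins were measured. With STZ 0 of the 33 passed, 11 were higher and 9 lower in both cultures, and the median difference was 0.03. The largest were Hs6st2, which adds 6-O-sulfate, at 0.64, the glypican gene Gpc3 at -0.50, and Ext1, a chain polymerase, at 0.46.

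The second comparison, WTA against WT2, asked how far the cultures differ in these families, in a fit with treatment and culture. Each culture is 1 cell sample, and the p-values do not cover variation among cell samples. The fit called 2 of the 44 members, Fgf10 and Fgfr2, both lower in WTA, beside 2.25% of all probe sets. Fgf10 stood at 8.75 with STZ and 8.63 in control cells of WTA, against 9.84 with STZ and 10.02 in control cells of WT2. The difference was -1.24 (SE 0.12, interval -1.58 to -0.89, limma adjusted p = 0.0445), so that WTA held 0.424 of the WT2 level. Fgfr2 stood at 7.25 with STZ and 7.74 in control cells of WTA, against 8.36 with STZ and 8.73 in control cells of WT2. The difference was -1.05 (SE 0.10, interval -1.33 to -0.77, limma adjusted p = 0.0445), or 0.482 of the WT2 level. For both genes the WTA arrays lay below both WT2 arrays, which also held for 27.7% of all probe sets. The identifiers of both probe sets end in s, a mark that can stand for probes shared with other transcripts. Both calls were narrow: in refits without 1 array (culture alone) each was lost whichever array was left out, with an adjusted p of 0.0523 to 0.532 for Fgf10 and 0.129 to 0.783 for Fgfr2, while the differences ran from -1.33 to -1.15 and from -1.30 to -0.81.

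The sequences before the annotated starts of Fgf10 and Fgfr2 are shown because these members passed the test in the culture fit. RefSeq's table (GRCm38.p6) held such a window for 33 of the 44 members. Printed are the 250 bases before the start, 5′ to 3′ on the gene's strand, with motif letters in capitals. Searched on both strands were the RUNX motif TGTGGT, the GC box GGGCGG, the AP-1 motif TGANTCA and the CArG box of serum response factor. The capitals in Fgf10 mark a GC box on the opposite strand, and none of the 4 motifs stands in the Fgfr2 window.
Fgf10 chr13:118714449-118714698 (+): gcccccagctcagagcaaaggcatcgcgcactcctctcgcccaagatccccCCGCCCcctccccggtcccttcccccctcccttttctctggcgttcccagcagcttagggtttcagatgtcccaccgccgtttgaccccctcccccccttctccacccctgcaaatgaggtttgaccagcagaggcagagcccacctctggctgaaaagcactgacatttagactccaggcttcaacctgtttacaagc
Fgfr2 chr7:130266809-130267058 (-): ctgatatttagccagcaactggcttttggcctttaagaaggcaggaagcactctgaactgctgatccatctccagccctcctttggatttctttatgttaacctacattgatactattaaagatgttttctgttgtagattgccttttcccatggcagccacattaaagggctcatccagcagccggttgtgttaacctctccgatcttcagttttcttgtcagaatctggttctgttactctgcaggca
Of 32851 mouse windows of this length, 32.7% held the GC box, 14% the RUNX motif, 6.75% the AP-1 motif and 1.47% the CArG box. The Fgf10 window had 61.2% G and C with 8 CpG sites and the Fgfr2 window 44.0% with 2, beside a median of 52.4% over all windows. A match describes letters and shows no binding.

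Pdgfd had the largest culture difference of all members and missed the threshold. It stood at 6.96 with STZ and 7.14 in control cells of WTA, against 5.0 with STZ and 5.80 in control cells of WT2. The difference was 1.65 (SE 0.18, interval 1.13 to 2.18, limma adjusted p = 0.0501), or 3.15-fold, and both WT2 values lay below the array median. For Pdgfra and the ligand genes Pdgfc and Pdgfa the differences were negative and did not pass. They were -0.82 for Pdgfra (interval -1.11 to -0.54, adjusted p = 0.0631), -0.76 for Pdgfc (interval -1.40 to -0.13, adjusted p = 0.232) and -0.21 for Pdgfa (interval -0.62 to 0.19). The other 2 measured fibroblast markers were at -0.43 (Dcn) and -0.23 (Lum) in the same comparison without passing, and their part in the Pdgfra, Fgf10 and Fgfr2 values was not tested. For Pdgfrb, the receptor of PDGF-D, the difference was 0.08 (interval -0.19 to 0.35).

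At an unadjusted p under 0.05 the culture fit held 13 members, 8 higher and 5 lower in WTA, beside 16.9% of all probe sets. Among the 20 bright members it held 10, beside 27.0% of probe sets above the array median. Besides those named above, the higher ones were Vegfc (0.77), Fgf18 (0.69), Met (0.65), Vegfa (0.53) and the dim Fgf23 (0.55), Btc (0.53) and Hbegf (0.30), and Egfr was lower (-0.73). The Egfr probe sets disagreed in size: the second one gave -0.28, with 10.13 and 10.36 in WTA against 10.45 and 10.59 in WT2. Both WTA arrays lay above both WT2 arrays for 15 members (21.3% of all probe sets) and below for 12 (27.7%). The median absolute culture difference of the bright members was 0.43, beside 0.19 over all bright probe sets, and over all 44 members it was 0.13, beside 0.12.

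By family, the VEGF genes ran from Vegfd at -0.20 to Vegfc at 0.77, with Vegfb at 0.26 between them. Fgf7 (0.11), Fgfr3 (0.03), Fgf17 (0.09) and Fgf22 (-0.01) lay near 0, so Fgf7 and Fgf10, whose products share a receptor form, had unlike culture differences (0.11 and -1.24, not tested against each other). Hgf was at -0.33 (interval -0.97 to 0.31) while Met was at 0.65 (interval 0.39 to 0.92). Of the heparan sulfate genes 2 of 33 passed, both higher in WTA: Hs6st2 (1.54) and Hs3st1 (1.00), sulfotransferases that act at different positions of the chain. Of the 6 measured endothelial markers 1 passed as higher in WTA (Esm1, 4.93) and 1 as lower (Cd34, -1.07). Selp (0.79), Thbd (1.33), Pecam1 (0.15) and Sele (0.05) did not pass. The summed linear level over the 6 measured genes was 2797 with STZ and 2609 in control cells of WTA, against 1922 with STZ and 1899 in control cells of WT2. The part of these markers in the VEGF values was not tested.

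**Figure D5:**
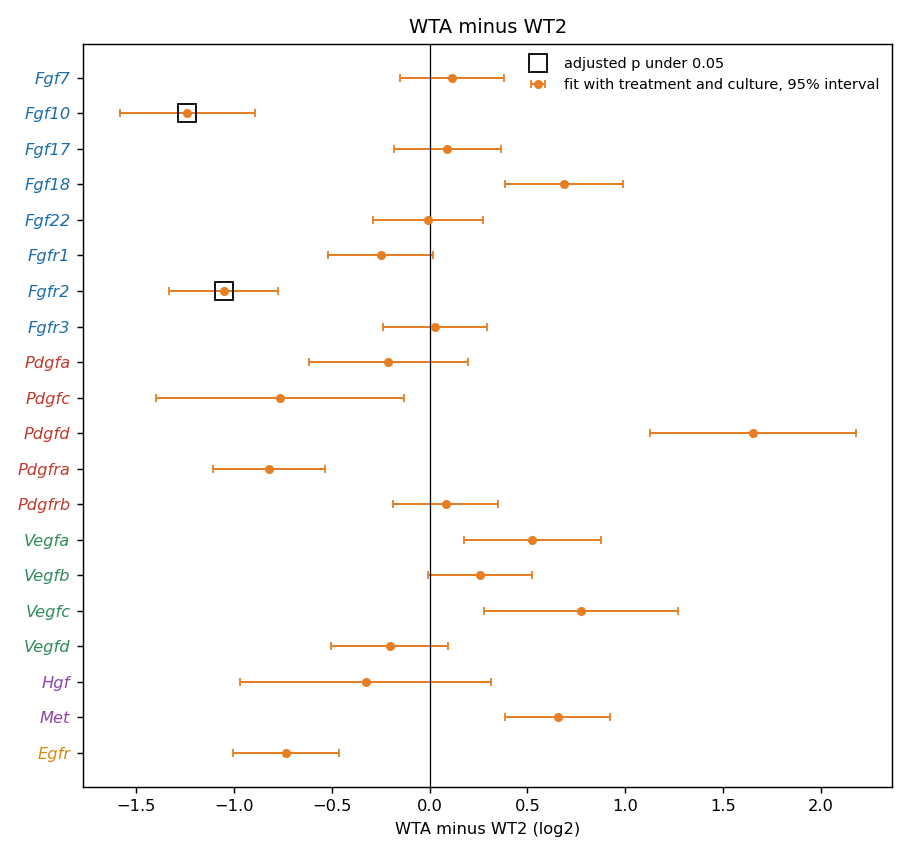
WTA minus WT2 (log2) with 95% intervals for the 20 members above the array median, from the fit with treatment and culture. Squares mark the 2 members at an adjusted p under 0.05, Fgf10 at -1.24 and Fgfr2 at -1.05, and Pdgfd lies farthest to the right at 1.65.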

How the data were processed

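RNA was extracted with Trizol and labelled with biotin by an Affymetrix protocol, per the labels' protocols. The authors deposited log2 values per probe set, which the submitters' processing notes tie to RMA. Version, settings and array annotation were not given in the sources used here. Since RMA makes array distributions alike, a shift of most genes at once would not be seen.

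Accessions in the 1246 identifiers were matched without version to RefSeq (GRCm38.p6, names only): 962 had 1 symbol (908 genes) and 284 none. Of the 44 chosen probe sets, identifiers of 9 end in s, 2 in a and 1 in x, marks that can stand for shared probes. The s mark falls on Fgf2, Fgf5, Fgf6, Fgf7, Fgf10, Fgfr1, Fgfr2, Met and Pdgfc, the a mark on Fgf22 and Vegfb, and the x mark on Fgf9.

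Fits used limma 3.58.1 in R 4.3.3 (lmFit, eBayes) on all probe sets, with Benjamini-Hochberg adjustment over all 1246 and a threshold of 0.05. The STZ fit had no block (2 residual and 1.68 prior degrees of freedom) and the culture fit held treatment and culture (1 and 2.73). Arrays with the same replicate number carry the same cell sample name, which pairs them, and their deviations from the group means correlated at 0.600. Code was tested on simulated data. Members and lists were chosen with earlier results of these data known. Named with all array values were the 6 largest differences each way above the array median, members past a test, the 4 largest culture differences, and set ligand and receptor pairs. Other members were named after their values were seen. Alternatives were the block, each array left out, median centring, quantile normalization, an intensity trend, a robust fit, a filter on dim probe sets and the mean of all probe sets of a gene.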

Additional observations from a re-analysis of the deposited data

Results flagged for a closer look

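Vegfc went opposite ways in the cultures by at least 0.2 on the log2 scale in each, the only member to do so: STZ minus control was -0.32 in WTA and 0.24 in WT2. Each arm holds 1 array per culture, so the difference was not tested, and a deviation of 1 array cannot be told apart from a response that differs between the cultures. Groups of 2 arrays are too small for the test of a sample far from the others.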

How the results depend on the processing

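With STZ, 0 probe sets passed under any alternative run: the replicate block (0, with 80 at an unadjusted p under 0.05 against 25 without it), each array left out (10 to 67 unadjusted), centring, quantile normalization, trend, robust fit, dim filter and gene means. The block changed no adjusted call. The median over the members (-0.03) was -0.074 over the bright ones and ran from -0.022 to 0.0046 with 1 array left out. With 1 array left out the arms no longer hold the same cultures, so STZ values then include part of the culture difference, and the lone array of an arm is assumed to vary like the others. Of 25 named members 12 kept their sign in each such refit, but several moved by more than 1.5 times: Met ran from 0.20 (without the WTA STZ array) to 0.88 (without the WT2 STZ array), Hgf from 0.15 (without the WT2 STZ array) to 0.87 (without the WTA STZ array), Vegfa from 0.025 (without the WT2 control array) to 0.70 (without the WTA control array), Fgf18 from -0.92 (without the WTA STZ array) to -0.13 (without the WT2 STZ array) and Pdgfa from 0.0064 to 0.43 (without the WT2 and the WTA STZ array). Fgf7 ran from 0.23 to 0.36. The 13 whose sign turned ran from -0.41 to 0.28 (Btc), -0.59 to 0.19 (Egfr), -0.72 to 0.66 (Fgf10), -0.69 to 0.15 (Fgf14), -0.15 to 0.41 (Fgf23), -0.25 to 0.030 (Fgfr1), -0.98 to 0.13 (Fgfr2), -0.084 to 0.28 (Hbegf), -0.98 to 0.17 (Pdgfc), -1.47 to 0.49 (Pdgfd), -0.87 to 0.028 (Pdgfra), -0.066 to 0.20 (Vegfb) and -0.57 to 0.49 (Vegfc). Fgf10 was 0.018 after quantile normalization. Of the 19 other members 9 turned in sign with 1 array left out and 3 under another setting.

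The culture count of 28 was 13 for culture alone without the replicate block (as treatment term), 8 after quantile normalization, 2 of 623 bright probe sets, 37 after centring, 35 with the trend, and 0 to 18 with 1 array left out, with 0 without either WTA array. Fgf10 and Fgfr2 also missed the threshold after quantile normalization (adjusted p = 0.0695 each) and among bright probe sets only (0.0743 each), and Fgfr2 for culture alone (0.185). Pdgfd passed after centring (0.0325), with the trend (0.0336), with gene means (0.0464) and without the WT2 control array (0.0456). Pdgfra passed with the trend and Pdgfc without the WT2 STZ array. Signs turned for Fgf22 (0.013 after centring, -0.068 to 0.053 with 1 array left out), Fgf7 (-0.039 to 0.27), Fgfr3 (-0.085 to 0.14), Hgf (-0.78 to 0.12) and Pdgfrb (-0.038 to 0.20). Causes were not tested. Values near the lower quartile hold background, which limits the 24 dim members.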
